A study of Homo sapiens with 6 samples.

Results

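The 48 genes described here encode the protein core of the human spliceosome: the Sm and LSm rings, the U1, U2 and U11/U12 particle proteins, the proteins of the U4/U6.U5 tri-snRNP, and the large SR-related proteins SRRM1 and SRRM2. They were taken by symbol, and all 48 of them were found among the 26364 genes of the deposited count table. The RNA came from HEK293T, a human cell line of embryonic kidney origin, and every library, controls included, was made after 3 h with 200 nM okadaic acid. Okadaic acid inhibits the phosphatases that dephosphorylate UPF1, the helicase of nonsense-mediated mRNA decay (NMD). In the p-UPF1 IP group (n = 3, label numbers 3, 6 and 9) RNA was recovered with an antibody against phosphorylated UPF1. The pre-IP group (n = 3, label numbers 1, 4 and 7) is titled as RNA from before the precipitation but carries a rabbit IgG antibody label, so it could be input or a mock precipitation. Libraries are named below by these numbers. The labels do not say whether replicates are separate cultures, and p-values reflect the spread among these 6 libraries, which may be technical.

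A spliceosome assembles anew on each intron from small nuclear ribonucleoproteins (snRNPs), each an RNA with a ring of Sm proteins, or of LSm proteins in the case of U6, and a set of proteins of its own. U1 marks the 5' splice site, U2 with the SF3A and SF3B complexes marks the branch site, and the tri-snRNP brings in the catalytic core built around PRPF8. Ring proteins are small and their coding sequences short, while the scaffolds and helicases are among the longer proteins of the cell. UPF1 can bind RNA with little sequence preference, and its phosphorylation marks mRNAs engaged in decay. The comparison therefore asks which of these mRNAs were over- or under-represented in the precipitate, set against pre-IP RNA.

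The short end of the length range is seen in the coding sequences shown here. That of SNRPG, the smallest ring protein, has 231 bases with its stop codon, and that of SF3B5, the smallest SF3B subunit, has 261. Both are shown 5' to 3' as DNA letters from GENCODE release 29, with the start and stop codons in capitals, because they are the shortest of the Sm and LSm genes and of the SF3 and PRPF genes.
SNRPG: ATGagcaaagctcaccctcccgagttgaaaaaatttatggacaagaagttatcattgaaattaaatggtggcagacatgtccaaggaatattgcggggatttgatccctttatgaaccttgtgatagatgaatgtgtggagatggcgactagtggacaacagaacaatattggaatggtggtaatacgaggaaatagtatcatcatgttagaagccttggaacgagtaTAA
SF3B5: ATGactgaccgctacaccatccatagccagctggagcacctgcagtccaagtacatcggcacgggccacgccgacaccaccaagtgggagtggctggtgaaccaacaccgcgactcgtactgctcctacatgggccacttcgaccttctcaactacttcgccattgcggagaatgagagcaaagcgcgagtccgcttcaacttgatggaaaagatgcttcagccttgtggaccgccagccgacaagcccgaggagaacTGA
The median coding length was 300 bases over the 14 Sm and LSm genes (231 to 696, SNRPB the longest) and 1641 bases over the 17 SF3 and PRPF genes (261 to 7008, PRPF8 the longest). SRRM2, at 8259 bases, was the longest of the 48.

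Libraries held 600244 to 1179369 counts in pre-IP against 905926 to 2057647 in p-UPF1 IP, and the 48 genes together took 1045 to 2551 of these in pre-IP against 7779 to 14022 in p-UPF1 IP. Many members therefore had low counts in a pre-IP library, and no molecular identifiers are described. Of 6 tested genes typical of HEK293T cells, the vimentin gene VIM had 419 counts in pre-IP against 3757 in p-UPF1 IP and the neurofilament gene NEFL 55 and 327. The others, NEFM, KRT8, KRT18 and LIN28B, had 34, 11, 37 and 43 counts in pre-IP against 87, 143, 148 and 251 in p-UPF1 IP. KRT8, KRT18 and LIN28B each had a pre-IP library at 0. PAX2 had 0 and 9 counts and was not tested. Of 16 markers of blood, liver, fibroblasts, muscle and epidermis, the summed counts per library and tissue were 0 to 6 in pre-IP against 0 to 9 in p-UPF1 IP, and all muscle and epidermis markers were at 0.

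Short ring genes and long scaffold genes parted between the groups. Of the 14 Sm and LSm genes, 9 were lower in p-UPF1 IP and 0 higher, with a median log2 fold change of -1.40, and of the 17 SF3 and PRPF genes 3 were higher and 1 lower, with a median of 0.45 (edgeR quasi-likelihood F-test on counts scaled by TMM, Benjamini-Hochberg adjusted p under 0.05 over all 8070 tested genes). Over all tested genes 8.81% were higher and 10.9% lower (19.7% in either direction), and the median log2 fold change was 0.10. Of the 46 members tested, 5 were higher (SRRM2, PRPF8, SF3A2, PRPF39 and SNRNP200), 11 lower and 30 not called, with a median of -0.053. SNRNP27 and SNRNP35 did not pass the filter on low counts. These directions are relative to the bulk of the tested genes: with library totals alone the Sm and LSm median turned to 0.13 and the SF3 and PRPF median was 2.03, against 1.63 for all tested genes. On that scale 25 members were higher and 2 lower, where 60.4% and 1.93% of all tested genes were. With TMM no Sm or LSm gene was higher at an unadjusted p under 0.05 either, nor was any by DESeq2 or limma-voom. With library totals alone SNRPD3 and LSM7 were called higher (1.14 and 1.66, adjusted p = 0.0122 and 0.0128).

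A ratio taken within each library does not depend on scaling. Summed counts of the SF3 and PRPF genes over those of the Sm and LSm genes were 1.29, 0.997 and 1.36 for pre-IP (libraries 1, 4 and 7) against 4.85, 4.38 and 5.20 for p-UPF1 IP (libraries 3, 6 and 9). Every p-UPF1 IP library thus stood above every pre-IP library, and the log2 ratio went from 0.27 ± 0.24 to 2.26 ± 0.12 (SD, n = 3), a 3.98-fold difference. Without PRPF8 and SNRPB, the most counted gene of each group, it was 3.22-fold, and without PRPF39 and SF3B3, which hold snoRNA genes in their introns, 4.13-fold. The genes were grouped with earlier results of these data known, so this ratio is given as a description without a test. As shares of all counts the Sm and LSm genes took 0.0643% ± 0.00537 in pre-IP against 0.0816% ± 0.00775 in p-UPF1 IP, and the SF3 and PRPF genes 0.0783% ± 0.0150 and 0.394% ± 0.0681. The share of the long genes was 5.03-fold higher and that of the short genes 1.27-fold higher. That of the other 17 members was 5.04-fold higher, so the rise was not particular to the SF3 and PRPF genes. With library totals alone the median log2 fold change over all tested genes was itself 1.63.

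**Figure D1:**
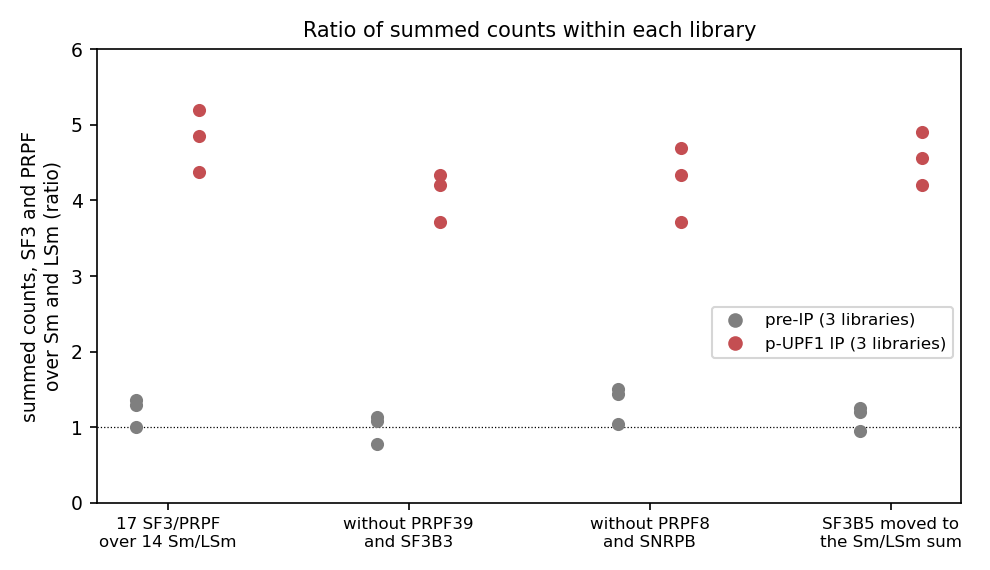
Ratio of the summed counts of SF3 and PRPF genes to those of Sm and LSm genes (vertical axis, linear) in each of 3 pre-IP (grey) and 3 p-UPF1 IP (red) libraries, for all genes and for 3 other choices of genes (horizontal axis). The pre-IP libraries lie at 0.997 to 1.36 and the p-UPF1 IP libraries at 4.38 to 5.20 with all genes, and the groups do not overlap under any of the 4 choices.

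The 7 Sm proteins close into the ring around U1, U2, U4 and U5 snRNAs, and 6 of their 7 genes were lower in p-UPF1 IP by TMM. By the same test 10.9% of all tested genes were lower, and 39.5% of protein-coding genes under 500 coding bases, the class of all Sm genes but SNRPB. With library totals alone SNRPB, SNRPD2 and SNRPD3 turned positive, SNRPD3 being called higher (1.14, adjusted p = 0.0122). Of the other 4 only SNRPG kept its call. SNRPG was counted 33, 25 and 34 times in pre-IP libraries 1, 4 and 7 against 18, 36 and 11 times in p-UPF1 IP libraries 3, 6 and 9, although the latter were mostly deeper. Its TMM-scaled level went from 63.5 ± 24.0 to 8.25 ± 4.22 CPM, or counts relative to TMM-scaled library size (log2 fold change -2.88, SE 0.49, adjusted p = 0.000714). SNRPE had 99, 30 and 46 counts in pre-IP against 35, 54 and 42 in p-UPF1 IP (log2 fold change -2.56, SE 0.38, adjusted p = 0.000215). SNRPG, SNRPE and SNRPF form a trimer during ring assembly, and the third of them fell as well. SNRPF had 53, 12 and 20 counts against 28, 12 and 19 (log2 fold change -2.66, SE 0.50, adjusted p = 0.00152).

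The proteins SNRPD1 and SNRPD2 pair in the ring, and so do SNRPB and SNRPD3. SNRPD1 had 76, 41 and 31 counts in pre-IP against 54, 84 and 70 in p-UPF1 IP, and it fell (log2 fold change -1.76, SE 0.41, adjusted p = 0.00645). SNRPD2 had 58, 35 and 74 counts against 130, 181 and 54 (log2 fold change -1.24, SE 0.36, adjusted p = 0.0218), and it was not called without library 3, 4, 7 or 9 (adjusted p from 0.0567 to 0.125). For both genes all 3 p-UPF1 IP libraries were below all 3 pre-IP libraries in CPM. SNRPB, the most counted ring gene, had 161, 79 and 125 counts against 450, 347 and 227, a change from 235 ± 41.8 to 130 ± 6.25 CPM (log2 fold change -0.84, SE 0.28, adjusted p = 0.0430). Its call was lost without each of the 6 libraries in turn (adjusted p from 0.0533 to 0.125), with RLE or upper-quartile scaling (0.0508 and 0.051) and with no filter on low counts (0.212). SNRPD3 had 68, 29 and 39 counts against 199, 192 and 108, its groups overlapped, and its log2 fold change of -0.41 was not past the threshold (adjusted p = 0.368).

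Within the ring the genes moved unequally, whatever the scaling. For each SNRPG count there were 1.15 to 2.06 counts of SNRPD3 in pre-IP libraries and 5.33 to 11.1 in p-UPF1 IP libraries, and 3.16 to 4.88 and 9.64 to 25 counts of SNRPB. The ratio of SNRPD3 to SNRPD1 was 0.707 to 1.26 in pre-IP against 1.54 to 3.69 in p-UPF1 IP. These pairs, and the others given below as ratios, were picked after their values were seen. GENCODE names 20 pseudogenes after SNRPG, 9 after SNRPE and 4 after SNRPF, so some of their reads may have been shared with or lost to copies. How multiply matching reads were counted is not given in the sources used here. SNRPD3 overlaps GUCD1 on the other strand, which had 57 counts in pre-IP against 309 in p-UPF1 IP. The strand setting is not given either, so reads of these genes cannot be told apart. Among all members 15 overlap a gene of the count table on the other strand.

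The LSm ring, which binds the 3' end of U6 snRNA, is built like the Sm ring, and 3 of its 7 genes were lower and 0 higher by TMM. Among all tested protein-coding genes under 500 coding bases, the class of all 7 LSm genes, 39.5% were lower and 2.09% higher, so the ring count is near that share. With library totals alone LSM5 and LSM8 turned to 0.0088 and 0.26, and LSM7 was higher at 1.66. LSM6 showed the lowest log2 fold change of all 46 tested members: it had 15, 13 and 30 counts in pre-IP against 16, 6 and 6 in p-UPF1 IP, from 39.2 ± 17.5 to 3.48 ± 1.36 CPM (-3.42, SE 0.64, adjusted p = 0.00142). LSM5 had 59, 14 and 25 counts against 75, 36 and 41 (-1.54, SE 0.41, adjusted p = 0.0133). LSM8, the subunit that sets the nuclear ring apart from the cytoplasmic one, had 28, 10 and 29 counts against 51, 52 and 29 (-1.27, SE 0.43, adjusted p = 0.0447). For each of these 3 genes all p-UPF1 IP libraries were below the pre-IP libraries in CPM. LSM8 was not called without library 3, 6, 7 or 9 (adjusted p from 0.105 to 0.163) and with DESeq2 (0.0506), and LSM5 was not called without library 1 (0.0739) or 6 (0.0748).

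LSM2, LSM3 and LSM4 also had groups that did not overlap, with log2 fold changes of -1.78, -0.74 and -0.76, none past the threshold (adjusted p from 0.0673 to 0.108), and 0.79 and 0.78 for LSM3 and LSM4 with library totals alone. LSM2 was called lower in 4 of 16 alternative fits. LSM3, the most counted gene of this ring, had 83, 34 and 50 counts in pre-IP against 250, 180 and 78 in p-UPF1 IP, or 105 ± 17.7 and 61.8 ± 16.7 CPM. LSM7 was apart from them, with 20, 10 and 8 counts in pre-IP against 53, 86 and 54 in p-UPF1 IP. That is 25.1 ± 11 and 25.9 ± 8.43 CPM, a log2 fold change of 0.10 (adjusted p = 0.908). The count ratio of LSM7 to LSM6 was 0.267 to 1.33 in pre-IP libraries and 3.31 to 14.3 in p-UPF1 IP libraries. LSM3 and LSM7 overlap XPC and SPPL2B on the other strand, and the strand setting of the counting is not given, so reads of these partners cannot be told apart. LSM1, which takes the place of LSM8 in the cytoplasmic decay ring and is not among the 48, had 16, 9 and 29 counts against 5, 29 and 21 and also fell (-2.13, SE 0.68, adjusted p = 0.0354).

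**Figure D2:**
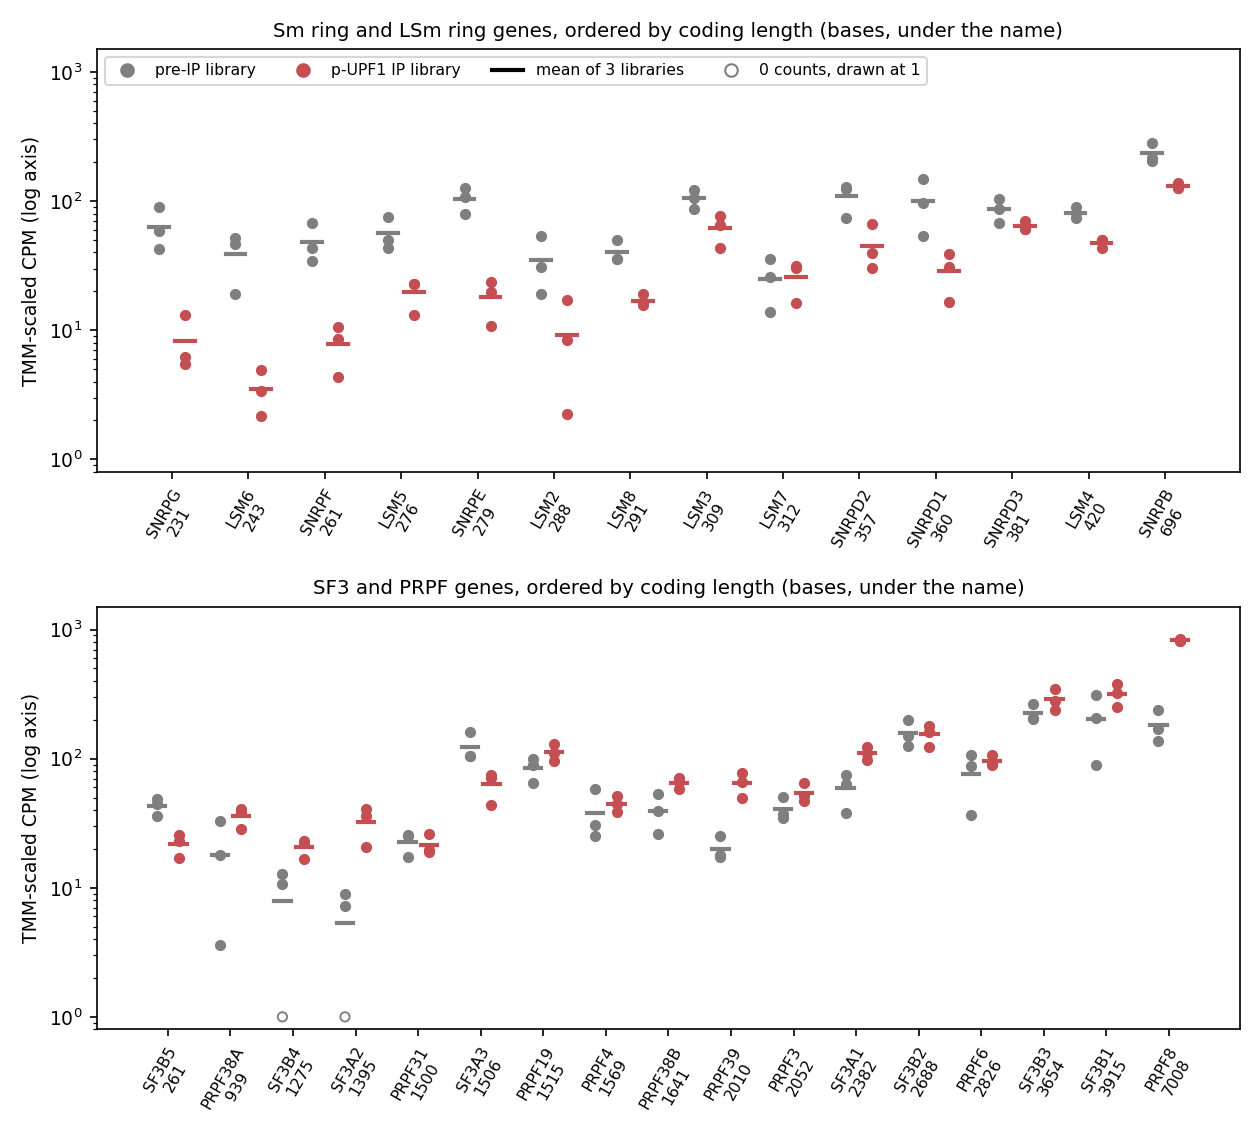
TMM-scaled CPM (vertical log axis) of each Sm and LSm gene (upper panel) and each SF3 and PRPF gene (lower panel) in 3 pre-IP (grey) and 3 p-UPF1 IP (red) libraries, ordered by coding length, with bars at the group means and libraries with 0 counts as open circles at 1. The 3 p-UPF1 IP libraries lie below the pre-IP libraries for 12 of 14 Sm and LSm genes, and above them for 6 and below for 2 of 17 SF3 and PRPF genes. They lie below for 17.7% and above for 21.9% of all tested genes. On library totals alone the Sm and LSm median is above 0.

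U1 has 3 proteins of its own, and their genes were not called, at an unadjusted p under 0.05 or by DESeq2 or limma-voom either. SNRNP70, which binds the first stem-loop of U1, had 43, 16 and 36 counts in pre-IP against 273, 279 and 126 in p-UPF1 IP. Its CPM was higher in all p-UPF1 IP libraries, 85.1 ± 15.6 against 58.2 ± 3.67, but its log2 fold change of 0.55 did not pass the threshold (SE 0.31, adjusted p = 0.227). SNRPA and SNRPC, both shorter, had -0.54 and -0.70 (adjusted p = 0.512 and 0.322). PRPF39, a factor that helps U1 bind, was higher: 14, 7 and 10 counts in pre-IP became 255, 180 and 89 in p-UPF1 IP (20.1 ± 4.32 to 64.4 ± 14.1 CPM, log2 fold change 1.74, SE 0.39, adjusted p = 0.00525). PRPF39 holds SNORD127 and overlaps FKBP3, and both of these genes were lower in p-UPF1 IP by the same test (adjusted p = 0.00323 and 0.00099). Without library 3 the call of PRPF39 was lost (1.56, adjusted p = 0.0526).

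The U2 snRNP proteins, SF3A, SF3B and U2AF, which together define the branch site and the 3' splice site, had 1 of 12 genes higher, 1 lower and 10 not called, shares near the 8.81% and 10.9% of all tested genes. Both called genes are subunits of the same trimer, SF3A. SF3A2 had 7, 2 and 0 counts in pre-IP against 117, 112 and 37 in p-UPF1 IP, from 5.37 ± 4.74 to 32.4 ± 10.4 CPM (log2 fold change 2.58, SE 0.70, adjusted p = 0.0159). SF3A3 went the other way by TMM, though not with library totals alone (0.57, adjusted p = 0.219), with 126, 29 and 61 counts against 232, 120 and 134 (123 ± 32.7 to 63.2 ± 17 CPM, -0.99, SE 0.32, adjusted p = 0.0387). SF3A1 had 50, 21 and 22 counts against 320, 338 and 199 and a log2 fold change of 0.93 that missed the threshold (SE 0.32, adjusted p = 0.0512). It was called higher in 9 of 17 alternative fits, among them DESeq2 (0.0307), limma-voom (0.0446), RLE scaling (0.0447) and upper-quartile scaling (0.0439).

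The split within SF3A did not depend on scaling. There were 0 to 0.0690 counts of SF3A2 per count of SF3A3 in pre-IP libraries and 0.276 to 0.933 in p-UPF1 IP libraries, and 0.361 to 0.724 and 1.38 to 2.82 counts of SF3A1. The coding sequences of SF3A2 and SF3A3 are of like length, 1395 and 1506 bases, but the genes differ in other features. GC content is 66.6% against 48.5%, the transcript has 1963 against 3673 bases, and the exons number 9 against 17. Whether these features go with the split was not tested. SF3A2 was not called without library 3 (adjusted p = 0.0825) or 6 (0.0967), and SF3A3 lost its call without library 1 (0.157), 3 (0.0959), 6 (0.175) or 9 (0.0819), with DESeq2 (0.0818) and with no filter on low counts (0.117). SF3A2 overlaps PLEKHJ1, which had 11 counts in pre-IP against 104 in p-UPF1 IP.

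None of the 5 SF3B genes was called by edgeR, DESeq2 or limma-voom, and 1 of them, SF3B5, was lower at an unadjusted p under 0.05. SF3B1, whose protein grips the branch-site helix, had 161, 25 and 182 counts in pre-IP against 1059, 691 and 680 in p-UPF1 IP (log2 fold change 0.62, SE 0.37, adjusted p = 0.257) and groups that overlapped. SF3B2 and SF3B3 had -0.047 and 0.37, and SF3B4, with 13 counts in pre-IP against 160 in p-UPF1 IP, 1.40 (adjusted p = 0.201). SF3B5, the short one shown above, had 35, 10 and 28 counts against 84, 47 and 41. Its level was 43.0 ± 6.48 CPM in pre-IP against 21.9 ± 4.37 in p-UPF1 IP, with no overlap, and its log2 fold change of -0.99 was not past the threshold (SE 0.40, adjusted p = 0.0919). The U2 proteins SNRPB2 and SNRPA1 had -1.41 and -0.54 (adjusted p = 0.0512 and 0.583). For U2AF2 and U2AF1, the subunits that read the polypyrimidine tract and the 3' splice-site AG, the log2 fold changes were 0.84 and 0.20 (adjusted p = 0.0924 and 0.767), and U2AF2 was called higher in 4 of 17 alternative fits.

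Among the proteins of the tri-snRNP and the B complex, 2 of 11 tested genes were higher and 1 lower, where 8.81% and 10.9% of all tested genes were. PRPF8, the scaffold that holds the catalytic RNA, had 107, 67 and 99 counts in pre-IP against 2783, 2241 and 1472 in p-UPF1 IP. All 3 p-UPF1 IP libraries were close to one another, at 830 ± 18.0 CPM, against 183 ± 52.5 in pre-IP, a 4.59-fold increase (log2 fold change 2.20, SE 0.35, adjusted p = 0.000411). SNRNP200, the helicase that unwinds U4 from U6, had 136, 89 and 100 counts against 1685, 1669 and 928, from 222 ± 83.9 to 547 ± 52.4 CPM (1.32, SE 0.34, adjusted p = 0.0117). This call was lost without library 1 (adjusted p = 0.0611) or 7 (0.0529).

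SNRNP40, a WD-repeat protein of the same U5 particle, was lower by TMM, and at 0.61 with library totals alone: 73, 31 and 52 counts in pre-IP against 162, 115 and 103 in p-UPF1 IP (98.1 ± 11.3 to 49.6 ± 7.87 CPM, log2 fold change -0.97, SE 0.31, adjusted p = 0.0339). Leaving out any library but number 7 ended that call (adjusted p from 0.0519 to 0.133), and so did dropping the filter on low counts (0.152). Per count of SNRNP40 there were 1.47 to 2.16 counts of PRPF8 in pre-IP libraries and 14.3 to 19.5 in p-UPF1 IP libraries, and 1.86 to 2.87 and 9.01 to 14.5 of SNRNP200. The GTPase EFTUD2, the third large U5 protein, had 56, 15 and 49 counts against 329, 317 and 284 and did not overlap between groups (0.81, SE 0.31, adjusted p = 0.0782). Per kilobase of coding sequence PRPF8 stood at 26.1 CPM in pre-IP against 118 in p-UPF1 IP, EFTUD2 at 24.0 and 42.8, SNRNP200 at 34.6 and 85.3 and SNRNP40 at 91.3 and 46.2. SNRNP40 thus had the highest per-length level of these 4 in pre-IP, and PRPF8 in p-UPF1 IP.

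The other tri-snRNP and B complex genes were not called. PRPF3, PRPF4 and PRPF31, which bind U4/U6, had log2 fold changes of 0.45, 0.19 and -0.058, PRPF6, which bridges U5 and U4/U6, 0.35, and the helicase DDX23 -0.60 (adjusted p from 0.311 to 0.945). PRPF38A and PRPF38B had 0.86 and 0.69 (adjusted p = 0.253 and 0.183). SNRNP27, not tested, had 17 counts in pre-IP against 54 in p-UPF1 IP. PRPF19, the ubiquitin ligase that names the complex which activates the spliceosome, had 51, 28 and 52 counts against 361, 361 and 171 (0.43, SE 0.30, adjusted p = 0.342). Of the U11/U12 proteins, which serve the rare minor introns, SNRNP25 and SNRNP48 had -0.51 and 0.094 (adjusted p = 0.624 and 0.925). SNRNP48, the most counted of them, had 13, 3 and 11 counts against 45, 44 and 39 and overlapped between groups, and SNRNP35 had 15 counts in pre-IP against 29 in p-UPF1 IP.

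SRRM2, a very large and disordered SR-related protein of nuclear speckles, had the lowest adjusted p of the 48. It was counted 54, 11 and 45 times in pre-IP and 1211, 890 and 539 times in p-UPF1 IP, from 62.1 ± 20.1 to 332 ± 34.9 CPM, a 5.18-fold increase (log2 fold change 2.37, SE 0.32, adjusted p = 0.000102). Its antisense gene SRRM2-AS1 had 3 counts in pre-IP against 1 in p-UPF1 IP. SRRM2 also overlaps the coding gene ELOB, whose counts are not given here. SRRM1 had 23, 12 and 2 counts against 219, 154 and 91 and no overlap between groups, but its log2 fold change of 1.31 was not past the threshold (SE 0.51, adjusted p = 0.0812), though it was in 5 of 17 alternative fits. In all, p-UPF1 IP libraries lay above pre-IP libraries for 11 members and below for 16, where 21.9% and 17.7% of all tested genes did so.

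**Figure D3:**
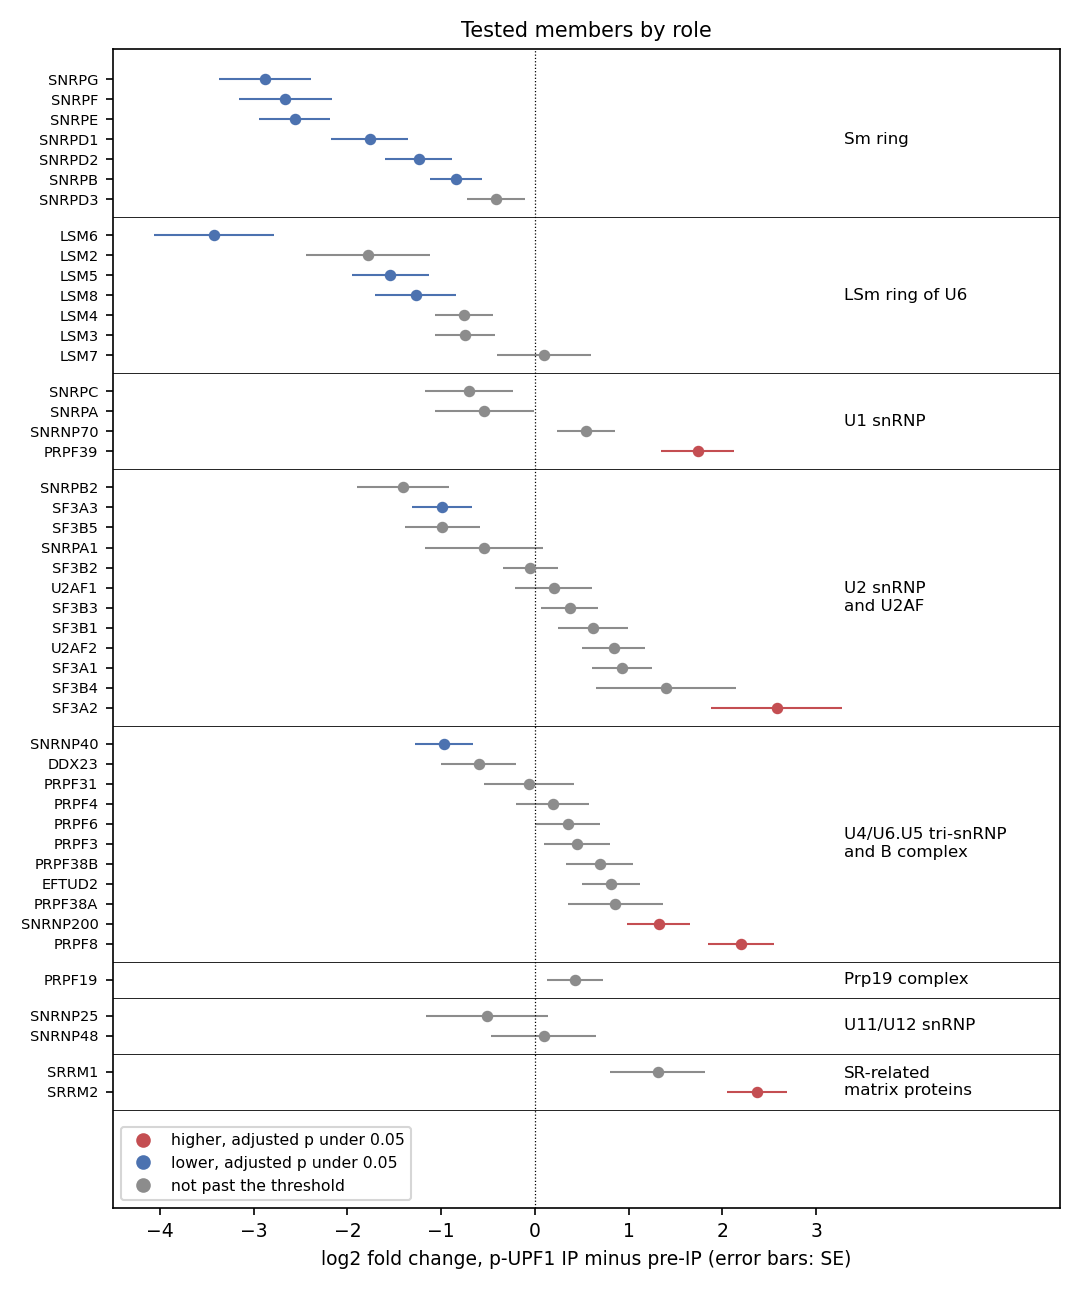
Log2 fold change between p-UPF1 IP and pre-IP (horizontal axis, TMM scaling) with its SE for the 46 tested members, grouped by role, in red where higher, blue where lower and grey where not past the threshold. The Sm ring genes all lie below 0 and SRRM2, PRPF8 and SF3A2 above 2; with library totals alone SNRPB, SNRPD2 and SNRPD3 lie above 0.

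The change went with coding length across the members. Pearson's r between log2 fold change and log10 coding length was 0.79 over the 46 tested members (Spearman's rho 0.80) and 0.44 over 7469 tested protein-coding genes (rho 0.46), a description across genes that share libraries and are not independent. The members hold groups that were set apart as short and long genes, so r over them cannot be compared directly with r over all genes. The 11 members that were lower had coding sequences of 231 to 1506 bases (median 291) and the 5 that were higher 1395 to 8259 (median 6411). GC content went with the change too, with r = 0.42 over the members and 0.20 over all tested protein-coding genes, and r was 0.62 for the number of exons and 0.52 for the length of the whole principal transcript over the members. Within the 14 Sm and LSm genes r was 0.59 for coding length (rho 0.78), 0.69 for GC content (rho 0.65) and -0.018 for transcript length. Within the 17 SF3 and PRPF genes r was 0.41 for coding length and rho 0.14, so the order of change went little with length there. For GC content r was 0.033 and rho -0.2 within these 17 genes, and for transcript length r was 0.28.

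All genes of a like coding length are the nearer comparison. Of 575 tested protein-coding genes under 500 bases, 39.5% were lower and 2.09% higher, with a median log2 fold change of -1.13, and the 16 members in this class had a median of -1.25 with 8 lower. Of 677 genes of 4000 bases or more, 32.1% were higher and 0.295% lower, with a median of 1.01, and the 3 members in this class, SNRNP200, PRPF8 and SRRM2, had 1.32 to 2.37. From 2000 to under 4000 bases the medians were 0.51 over 1931 genes and 0.54 over 10 members. From 1000 to under 2000 bases they were 0.1 over 2760 genes and 0.43 over 11 members. From 500 to under 1000 bases they were -0.32 over 1526 genes and -0.54 over 6 members. Below 500 bases the members' median thus lay near that of their class, with LSM6, SNRPG, SNRPF and SNRPE below its lower quartile of -1.82. Of the 3 longest, PRPF8 and SRRM2 lay above the upper quartile of their class, 1.65, and SNRNP200 below it. Nothing particular to spliceosome genes is read from these counts.

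With the trend on coding length removed, 3 members were higher and 4 lower, against 2.99% and 6.02% of the 7469 genes tested so. SRRM2, PRPF8 and SF3A2 stayed higher (log2 fold changes beyond the trend 1.02, 0.95 and 2.34, adjusted p = 0.0389, 0.0427 and 0.0459), and SNRPE, LSM6, SF3A3 and SNRNP40 stayed lower (-1.36, -2.07, -1.28 and -1.04, adjusted p from 0.0196 to 0.0487). SNRNP200 was at 0.12 (adjusted p = 0.834), SNRPG at -1.45 (0.0633) and PRPF39 at 1.26 (0.0532). The Sm and LSm median went from -1.40 to -0.45 and the SF3 and PRPF median from 0.45 to 0.13, so that the gap between them went from 1.86 to 0.58. This fit was chosen after the data had been seen. With the trend on transcript length removed instead, 5 were higher and 9 lower, against 3.39% and 8.14% of those genes, LSM7 became one of those higher (1.70, adjusted p = 0.0343), and the gap was 1.30.

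**Figure D4:**
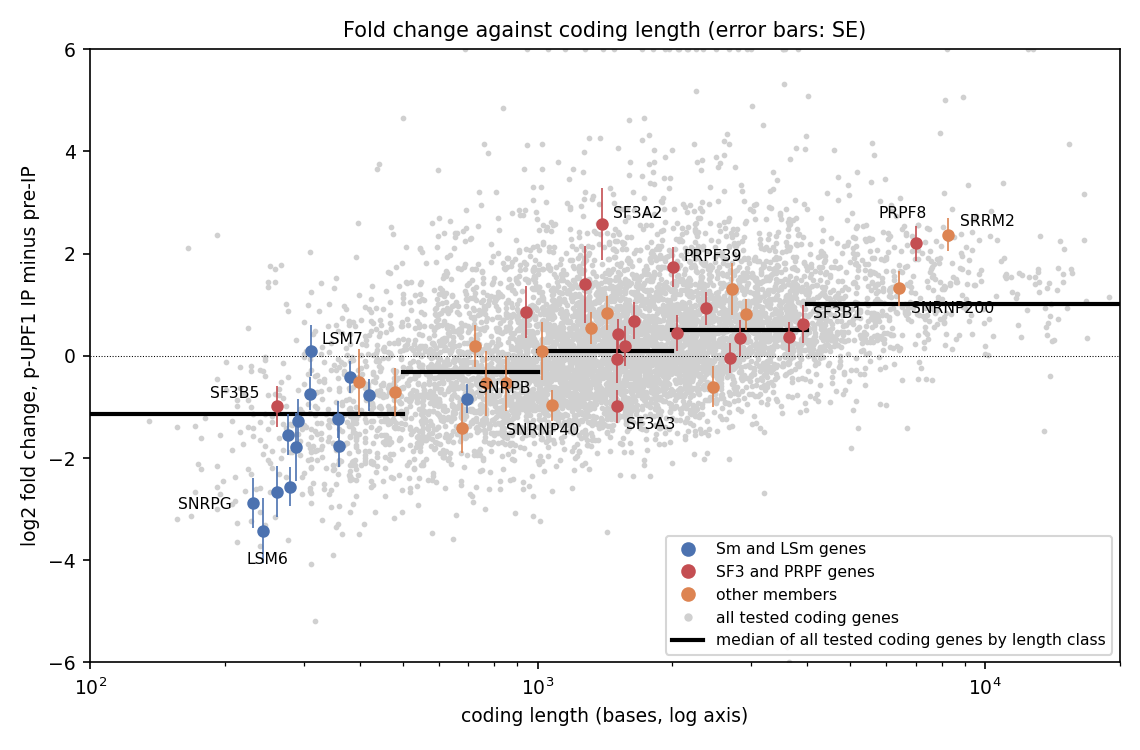
Log2 fold change between p-UPF1 IP and pre-IP (vertical axis, TMM scaling, SE bars on members, values beyond ± 6 drawn at the edge) against coding length (horizontal log axis) for Sm and LSm genes (blue), SF3 and PRPF genes (red), other members (orange) and all tested protein-coding genes (grey), with black lines at the median of each length class. Members run from LSM6 and SNRPG at the lower left to PRPF8 and SRRM2 at the upper right, each of these 4 farther from 0 than its class median (-1.13 and 1.01). SF3A2 and SF3A3 part at nearly the same coding length, though they differ in GC content (66.6% and 48.5%).

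Other spliceosome genes were read from lists that hold none of the 48. Of 70 tested, 5 were higher and 8 lower, shares near the 8.81% and 10.9% of all tested genes, with a median log2 fold change of -0.31 against 0.10 for all tested genes. Among those higher were CHERP and CD2BP2 (2.19 and 2.18, adjusted p = 0.0067 and 0.00272), the helicase DHX8 (1.17) and the branch-point binding protein SF1 (0.96). Among those lower were NHP2L1, which binds U4 snRNA and box C/D snoRNAs (-2.03), RBM17 (-1.79), the U5 protein TXNL4A (-1.70), the SMN-complex protein STRAP (-1.64) and LSM1. SF1 among the higher genes, and MFAP1, PQBP1 and SMU1 among the lower ones (-1.66, -1.24 and -1.19), are named after their values were seen. None of 18 tested partners of PRPF19 and related factors passed the threshold in edgeR or DESeq2, 9 of them above 0 and 9 below. In that list 1 gene was lower at an unadjusted p under 0.05, and 1 was called lower by limma-voom. The SF3B subunits outside the 48, SF3B6 and PHF5A, both short, had -0.64 and -0.51 (adjusted p = 0.148 and 0.446).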

How the data were processed

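The 6 HEK293T libraries (3 pre-IP, 3 p-UPF1 IP) were grouped by title. The deposited table holds raw counts of reads per gene symbol, 1 column per library, made by the authors on hg19; the submitters' processing notes name STAR 2.5.2b, cutadapt 1.15 and, for counting, featureCounts (Subread 1.5.0p3). No source used here gives the gene annotation, the strand setting or the treatment of multiply matching reads. Per the labels' protocols, RNA was depleted of ribosomal RNA, ligated to adapters at both ends and amplified; no molecular identifiers are described, so counts may include PCR duplicates.

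Counts were fitted with edgeR 4.0.16 under R 4.3.3 (TMM scaling, quasi-likelihood F-test, and the 8070 genes that filterByExpr kept at min.count 10), and p-values were adjusted by Benjamini-Hochberg over all tested genes at 0.05. The standard error (SE) is the size of the log2 fold change over sqrt(F). The fit was tested on simulated counts. CPM were taken on TMM-scaled library sizes. Chi-square per degree of freedom between libraries of a group was 10.9 to 23.3, so none was a copy of another. Gene types, lengths and overlaps were matched by symbol to GENCODE release 29 (GRCh38, a later build, so no coordinates are given), which held 23800 of 26364 symbols and all 48 members. Lengths are of the APPRIS principal transcript with the longest coding sequence, counting the stop codon.

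The members and lists were chosen with earlier results of these data known. Values in every library were given for members past the threshold and for the most counted member of each role, and of other lists up to 3 changes in each direction were named, except 1 that is not reported here. Alternatives were scaling by library totals alone, by RLE or by the upper quartile, a minimum count of 30 or none, DESeq2 1.42.0, limma-voom (limma 3.58.1), a replicate block, the 10 most counted genes left out, a loess trend on transcript or coding length removed, and each library left out in turn.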

Additional observations from a re-analysis of the deposited data

How the results depend on the processing

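Of 16 called members, 3 kept their call in every alternative fit in which they were tested (LSM6, PRPF8 and SRRM2), and 7 kept it without each library in turn. With library totals alone 5030 genes were called in place of 1591, 25 members were higher and 2 lower in place of 5 and 11, and the medians were 0.13 for Sm and LSm genes and 2.03 for SF3 and PRPF genes. On that scale 18 members changed sign: SNRPB (0.74), SNRPD2 (0.28), SNRPD3 (1.14), LSM3 (0.79), LSM4 (0.78), LSM5 (0.0088), LSM8 (0.26), SNRPA (1.05), SNRPC (0.97), SNRPA1 (1.09), SNRPB2 (0.17), SF3A3 (0.57), SF3B2 (1.46), SF3B5 (0.55), PRPF31 (1.46), SNRNP40 (0.61), DDX23 (0.92) and SNRNP25 (0.96). The number of higher members was 8 with no filter on low counts and 8 with limma-voom. With no filter SF3B2 and PRPF31 turned to 0.13 and 0.12, with DESeq2 to 0.050 and 0.041, and with limma-voom SNRNP48 turned to -0.037.

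With the transcript length trend removed 861 genes were called and the Sm and LSm median was -0.99. SNRPC, SNRPA1, SF3B5 and SNRNP25 turned to 0.28, 0.15, 0.23 and 0.15, and SF3B3, PRPF4 and SNRNP48 to -0.41, -0.035 and -0.34. With the coding length trend removed, an alternative chosen after seeing the data, 673 genes were called, 3 members were higher and 4 lower, and the medians were -0.45 and 0.13. There SNRPD3, LSM3, SF3B5 and SNRNP25 turned to 0.44, 0.34, 0.28 and 0.29, and SF3B1, SF3B3, PRPF3, PRPF4 and PRPF6 to -0.30, -0.49, -0.040, -0.13 and -0.35. Why calls differ between fits was not tested, except that removing a trend subtracts it by construction.

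Leaving out 1 library at a time gave 791 (without p-UPF1 IP replicate 3) to 1628 calls over all genes, 950 without p-UPF1 IP replicate 6 and 908 without replicate 9. It gave 3 (without p-UPF1 IP replicate 3) to 8 (without pre-IP replicate 4) higher members and 6 (without p-UPF1 IP replicate 6 or 9) to 8 lower ones, with 7 lower without p-UPF1 IP replicate 3. Medians were -1.50 to -1.29 for Sm and LSm genes and 0.48 to 0.59 for SF3 and PRPF genes. Members that changed sign in these fits were SNRPA (-0.91 to 0.078), SF3B2 (-0.18 to 0.17), PRPF31 (-0.22 to 0.091), SNRNP48 (-0.088 to 0.26), LSM7 (-0.17 to 0.4) and U2AF1 (-0.13 to 0.54). The log2 difference of the within-library ratio was 1.86 to 2.08 without 1 library, and 1.69 without PRPF8 and SNRPB.

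The groups share no replicate number. Numbers of 1 triplet (1 with 3, 4 with 6, 7 with 9) were fitted as a replicate block, which gave 1656 calls, 7 higher and 11 lower members. LSM8 was not called there (adjusted p = 0.0725), and LSM2, SF3A1 and SRRM1 were (0.0383, 0.0356 and 0.0238). Deviations from the group means correlated at 0.086, 0.156 and 0.097 within triplets and from -0.11 to 0.023 across them, each library best with its own triplet, a hint from the data and not from the design. Deviations within a group cancel out for each gene, so higher correlations within triplets lower those across them by construction.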
